A study of Mus musculus with 6 samples.

Results

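Gene expression in mouse neural stem and progenitor cells cultured with PQ was compared with that in the same kind of cells cultured with NAC. The comparison rests on 4 of the 6 libraries of the study, 2 titled PQ and 2 titled NAC, and covers all genes that could be tested, 12813 of 17254 gene identifiers in the tables. All cultures, the 2 control libraries included, grew in N2 medium with EGF and bFGF, and the labels give 48 h for either agent. The labels spell out neither agent, give no dose, age, strain or passage, and do not tell whether the 2 libraries of each group were grown apart. The p-values therefore reflect only how far these libraries differ from each other, a spread that may be technical. The series describes its aim as bringing the cells to different intracellular redox potentials. Summed expected counts were 9680436 to 10698241 per library. The control libraries enter no mean and no fold below, but they share the estimate of spread, and their levels are given beside some genes for orientation.

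Neural stem and progenitor cells kept with EGF and bFGF divide as undifferentiated cells and can form neurons, astrocytes and oligodendrocytes once these factors are withdrawn. They surround themselves with matrix proteins, keep in contact through adhesion molecules and read Notch, Wnt, FGF and EGF signals that hold them between division and differentiation. Many genes of radial glia are shared with astrocytes, among them transporters that clear glutamate and GABA. The label was met by stem cell markers. Sox2, a transcription factor of neural stem cells, stood at 301 and 295 CPM with PQ, 302 and 314 CPM with NAC and 352 and 413 CPM in control. Nes, their intermediate filament, stood at 715 and 719 CPM with PQ, 471 and 466 CPM with NAC and 579 and 557 CPM in control. Sox2 was not called (adjusted p = 0.76), its NAC libraries lying just above its PQ libraries, whereas Nes was higher with PQ in both libraries (log2 fold change 0.61 ± 0.09, adjusted p = 2.9e-05).

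The 2 treatments differed over a large part of the transcriptome. Of the 12813 genes tested 3926 (30.6%) passed an adjusted p of 0.05, 1986 (15.5%) of them higher with PQ and 1940 (15.1%) higher with NAC. Most of these differences were modest. The median fold of the called genes was 1.55 for those higher with PQ and 1.457 for those higher with NAC. At least 2-fold differences were called for 807 genes (6.3%), 520 of them (4.06%) higher with PQ and 287 (2.24%) with NAC. The median log2 fold change of all genes tested was 0.001. The PQ and NAC libraries did not overlap in 8457 genes (66.0%). The call held whichever of the 6 libraries was left out in 1806 genes (14.1%), a count that did not check direction. The total of called genes fell to 2427 if PQ replicate 2 was dropped and to 2537 if NAC replicate 1 was. It was 2686 in the absence of PQ replicate 1 and 2981 in that of NAC replicate 2. In what follows "higher" means called in the comparison of all libraries. Counts of list and family members below are to be read beside the 15.5% and 15.1% of all genes tested. These shares hold for the main fit of all libraries. Counts from other runs are to be read beside the totals of those runs, which changed as well. By DESeq2 1533 genes were higher with PQ and 1447 with NAC. Genes named without a further remark also kept their call without any 1 library and did not overlap between PQ and NAC. Log2 fold changes are PQ over NAC, so negative values are genes higher with NAC. The ± SE is that of the fit. Its spread is estimated from all 6 libraries, 2 a group, and evened out across genes, so it is not the spread of the libraries of 1 gene. Levels are in CPM, counts scaled to library size, which compare a gene between libraries and not genes with each other. Whether reads were counted by strand is not known, so reads of opposite-strand genes cannot be told apart where exons overlap. Of the exonic bases of Grin1 29.9% lie on a tested opposite-strand gene. The share was 26.0% in Kcnmb4, 17.4% in Pfkp, 16.3% in Ctsb, 14.8% in Erap1 and 11.0% in Nkx2-2, and 10.9% in Paics, whose partner is Ppat. Other named genes above 10% carry a remark of their own. Where 4 levels are given, the 2 PQ libraries stand before "against" and the 2 NAC libraries after it.

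**Figure D1:**
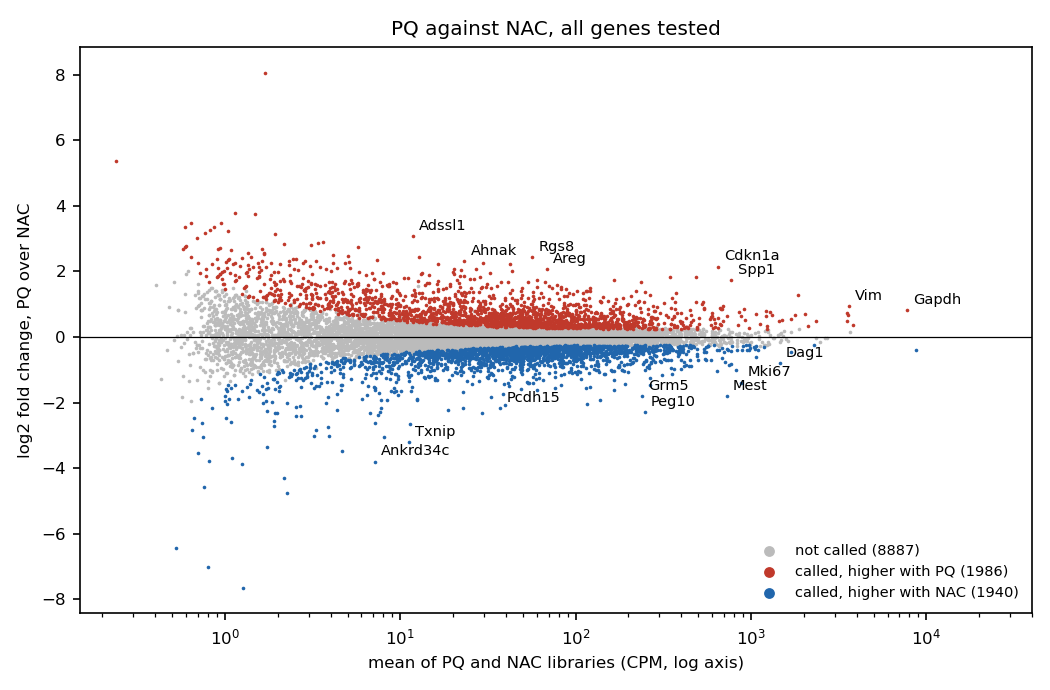
Log2 fold change of PQ over NAC (vertical axis) against the mean of the PQ and NAC libraries in CPM (horizontal log axis) for the 12813 genes tested, 1 point each. The 1986 genes called higher with PQ are red, the 1940 called higher with NAC blue and the others grey, and both colours lie over the whole range of levels.

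The leading genes on the PQ side come from purine handling, signalling and the cell surface. Adssl1, the muscle isoform of adenylosuccinate synthase in the purine nucleotide cycle, had 21.4 and 20.6 CPM with PQ, 2.503 and 2.48 CPM with NAC and 12.7 and 11.8 CPM in control. Its log2 fold change, 3.07 ± 0.19 (adjusted p = 3.6e-09), was the largest among genes at 5 CPM or more that met the rule for naming. Its PQ libraries were the highest, its NAC libraries the lowest, and no groups overlapped. Rgs8, a brake on G protein signalling, stood at 94.2 and 97.0 CPM with PQ, 16.3 and 19.01 CPM with NAC and 45.8 and 41.9 CPM in control, a log2 fold change of 2.44 ± 0.12. Cdkn1a, the cyclin-dependent kinase inhibitor p21, was 4.43-fold higher with PQ (1032 and 1084 CPM with PQ, 223 and 255 CPM with NAC and 468 and 473 CPM in control). The high value of Cdkn1a was in both PQ libraries and the control libraries lay between the treatments. Ass1, which makes argininosuccinate on the way to arginine, was 4.26-fold higher (7.70 and 9.03 against 2.41 and 1.49 CPM), and Gda, which deaminates guanine, 5.14-fold (12.0 and 12.7 against 2.04 and 2.77 CPM). Lipg, a secreted lipase, was 4.67-fold higher (61.8 and 77.5 against 16.3 and 13.5 CPM), and Plpp2, a phosphatase of lipid phosphates, 4.75-fold. Among structural genes Ahnak, a giant scaffold protein beneath the membrane, had 44.0 and 33.3 against 7.51 and 7.92 CPM (2.32 ± 0.17). The matrix proteins Tinagl1 (2.25), Adamtsl5 (2.30) and Emilin2 (2.11) belong to this leading group too. So do the kinase Pak3 (2.24), the caveolar protein Cavin4 (2.85), the elongation factor Tcea3 (2.75) and the interferon-induced exonuclease Isg20 (2.49). The remaining leading genes of this side were Nacad (2.88), Ripor2 (2.47), Tcam1 (2.28), Ggta1 (2.22) and Tspan17 (2.12).

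The leading genes on the NAC side include GABA genes and matrix genes. Ankrd34c, an ankyrin repeat gene, had the largest difference among them (1.14 and 0.760 against 13.9 and 12.8 CPM, log2 fold change -3.80 ± 0.27, adjusted p = 1.8e-08). Txnip, which binds and inhibits thioredoxin, stood at 2.29 and 2.09 CPM with PQ, 19.5 and 21.1 CPM with NAC and 12.9 and 19.2 CPM in control (-3.21 ± 0.24). Both PQ libraries of Txnip lay below every other library, while the control libraries lay near the NAC libraries. Of its exonic bases 21.4% lie on a tested opposite-strand gene. Slc6a11, the GABA transporter GAT-3, had 0.208 and 1.14 against 4.45 and 7.13 CPM (-3.03 ± 0.47), and Gabrg1, a GABA-A receptor subunit, 0.937 and 0.665 against 6.58 and 4.95 CPM (-2.84 ± 0.38). Eln, elastin, was 8.18-fold higher with NAC (0.937 and 0.760 against 6.49 and 7.53 CPM). Pcdh15, a protocadherin known from the tip links of hair cells, stood at 12.8 and 14.1 CPM with PQ, 59.5 and 61.6 CPM with NAC and 8.89 and 8.73 CPM in control. Here the NAC libraries stood apart and the control libraries were the lowest. Igsf10 was 5.00-fold higher with NAC (9.68 and 9.79 against 49.8 and 47.7 CPM), and 19.2% of its exonic bases lie on an opposite-strand gene that was also tested. Cntn1, a neural adhesion molecule, had 2.29 and 2.85 against 14.6 and 10.8 CPM and Dlgap3, a postsynaptic scaffold, 0.937 and 2.09 against 6.12 and 8.32 CPM. The other leading genes were Rdm1 (-3.48), Prr18 (-3.04), Golga7b (-2.74), the glycosyltransferase Galnt16 (-2.65), the cyclic AMP phosphodiesterase Pde7b (-2.63), Brinp2 (-2.38), Tmem100 (-2.31), the matrix gene Papln (-2.16) and Rasl11a (-2.16). The imprinted gene Peg10 (-2.30) and Cd14 (-2.22) also belong to this group.

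Ranked by the difference in FPKM, which is scaled for length, abundant genes came first. Those higher with PQ were led by the glycolytic enzyme Gapdh (7955 against 4581 FPKM, log2 fold change 0.81 ± 0.09). Next came the ferritin heavy chain Fth1 (4772 against 3008 FPKM, 0.68 ± 0.09) and the intermediate filament Vim (2597 against 1376 FPKM, 0.93 ± 0.09). Spp1, the secreted phosphoprotein osteopontin, was the strongest of them in fold (1227 and 1143 CPM with PQ, 354 and 362 CPM with NAC and 575 and 591 CPM in control, 3.31-fold). Lgals1, a galectin, was 1.59-fold higher, Mt1, a metallothionein, 2.11-fold, Tmsb10, a thymosin, 1.82-fold, and Bc1, a small cytoplasmic RNA, 2.73-fold. On the NAC side stood Ptma, prothymosin alpha (1217 against 1689.8 FPKM, -0.46 ± 0.09), and Mest, an imprinted gene (130.5 against 458 FPKM, -1.80 ± 0.10). The chromatin proteins Hmgn2 (-1.13) and Hmgb1 (-0.62), the microtubule regulator Stmn1 (-0.69), the dystroglycan gene Dag1 (-0.79) and the RNA-binding protein gene Hnrnpa2b1 (-0.40) followed. Tslp (-0.84), Rps15 (-0.40) and Plekhb1 (-0.72) complete the group. The naming rule required that in each of these the 2 libraries of one treatment lie on the same side of both libraries of the other.

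**Figure D2:**
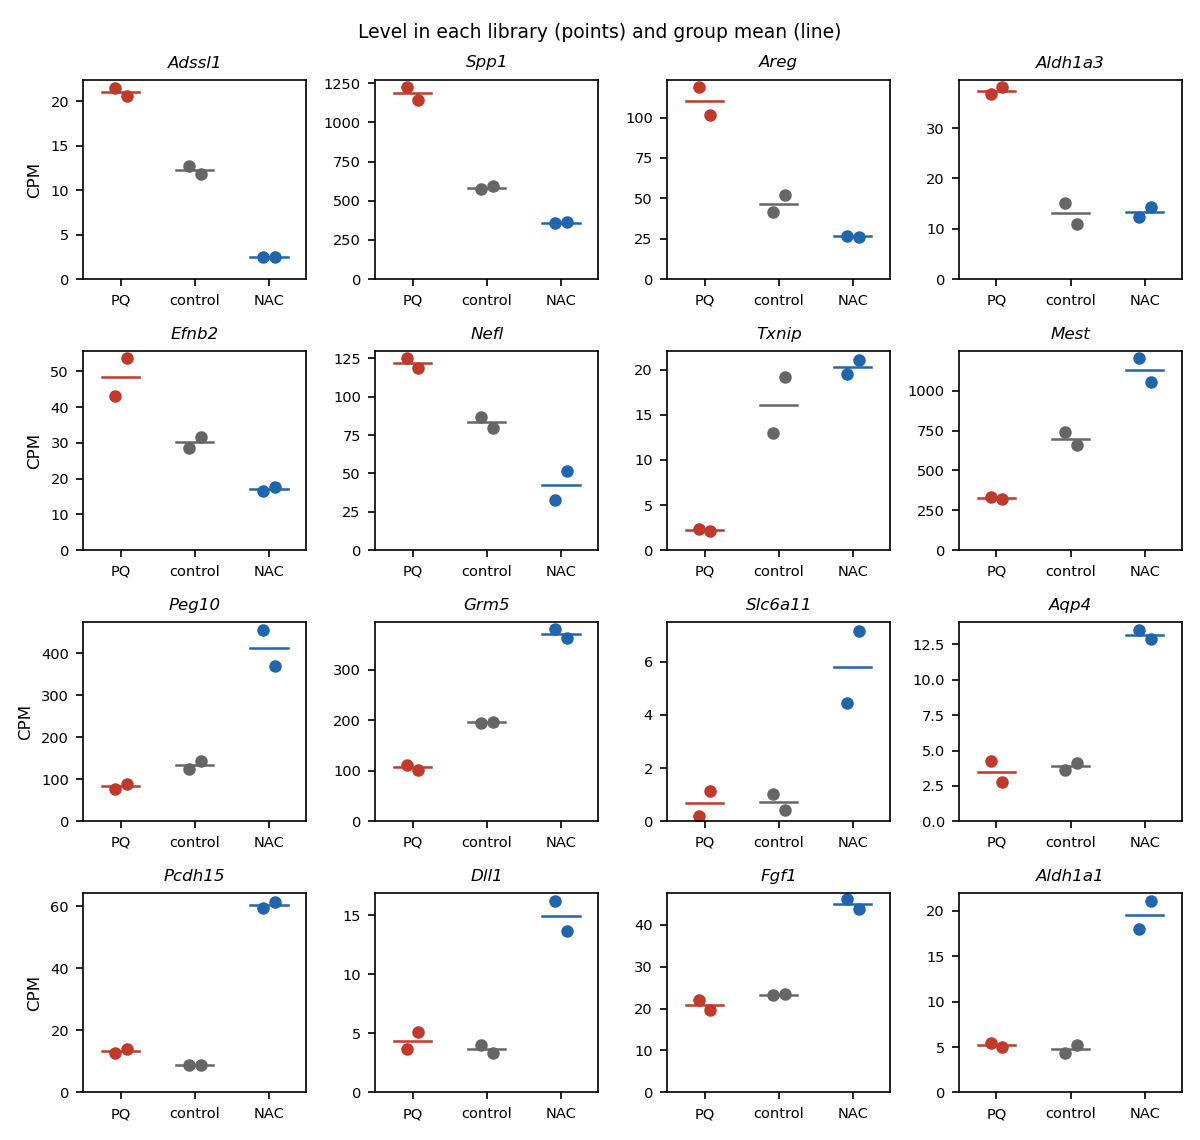
Level in CPM (vertical axes, starting at 0) of 16 genes in each library (points) and the mean of each group (line) for PQ, control and NAC. In each panel the PQ and NAC points are apart; control points lie between them for Adssl1, Spp1 and Mest and beside the PQ points for Aqp4 and Dll1.

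Stress and cell cycle lists frame these differences and are given briefly. All 24 of 24 tested S phase genes were higher with NAC (median log2 fold change -0.79), as were 23 of 24 G2 and M phase genes (-0.71), for example Mki67 (520.4 and 450.2 against 1366 and 1189.6 CPM, -1.40 ± 0.10). On the PQ side were 16 of 20 p53 targets (0.89), 23 of 26 hypoxia and glycolysis genes (0.65), 16 of 20 NRF2 targets (0.47). Amino acid response genes gave 11 of 25 (0.36), a count of 6 or 7 without any 1 PQ or NAC library and of 7 by DESeq2, limma and the robust fit. Leading members were Ccng1 (1.83 ± 0.10), Pfkp (1.17 ± 0.10) and Hmox1 (1.47 ± 0.12), the heme oxygenase. Sesn1 was the 1 p53 target higher with NAC (-0.56 ± 0.13, adjusted p = 0.065 without PQ replicate 2). Chac1, which degrades glutathione, was higher with PQ (1.02 ± 0.29) but lost its call (adjusted p = 0.086 without NAC replicate 1). The medians stand beside 0.001 over all genes tested.

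Genes of the extracellular matrix, the protein mesh around the cells, differed in both directions. Of 19 tested collagens 8 were higher with PQ and 2 with NAC (1 without PQ replicate 2), with a median of 0.41. Col6a1 (40.7 and 40.4 against 12.2 and 11.8 CPM, 1.75 ± 0.13) and Col6a2 (3.43 and 4.28 against 0.742 and 0.792 CPM, 2.32 ± 0.38), which assemble in the same collagen VI trimers, were both higher with PQ. Col18a1 (1.23 ± 0.11) and Col5a1 (0.74 ± 0.11) were also higher with PQ, and Col11a1 (-0.57 ± 0.10) with NAC, beside Col3a1 (-0.54 ± 0.14), which lost its call (adjusted p = 0.11 without NAC replicate 1). Of 20 collagen-modifying enzymes 7 were higher with PQ and 0 with NAC (4 without PQ replicate 1 or NAC replicate 1). They were led by the cross-linking oxidase Loxl2 (119.7 and 103 against 38.4 and 50.1 CPM, 1.34 ± 0.13), and the lysyl hydroxylase Plod2 (783 and 617 against 336 and 360.0 CPM, 1.01 ± 0.11). The prolyl hydroxylases P4ha2 (1.54 ± 0.23) and P3h2 (0.49 ± 0.10) followed.

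Matrix glycoproteins and proteoglycans split by identity: 14 of 31 were higher with PQ and 8 with NAC. Spp1 (1.73 ± 0.09), Tnc, tenascin-C (737 and 716 against 330.1 and 357 CPM, 1.08 ± 0.09), Sparc (905 and 910.2 against 472 and 476 CPM, 0.94 ± 0.09) and Matn2 (1.51 ± 0.16) were on the PQ side. The elastic fibre genes Eln and Fbn2 (48.9 and 49.0 against 99.6 and 106 CPM, -1.07 ± 0.10) were on the NAC side. So were the brain proteoglycans Ncan (135 and 133 against 213 and 243 CPM, -0.77 ± 0.10) and Bcan (130.1 and 153 against 236 and 267 CPM, -0.83 ± 0.10). Of 12 basement membrane genes 5 were higher with NAC (3 without PQ replicate 2 or NAC replicate 1) and 2 with PQ, at a median of 0.06. The 2 became 1 without any 1 of the PQ or NAC libraries. The netrin family gene Ntn4 (34.4 and 34.5 against 85.8 and 81.8 CPM, -1.28 ± 0.10), Dag1 (-0.79 ± 0.09), which encodes the laminin receptor dystroglycan, and Lamb2 (-0.66 ± 0.12) were higher with NAC, and Lama4 (0.59 ± 0.12) with PQ. Nid2 (-0.74 ± 0.18, adjusted p = 0.073 without NAC replicate 1), Lamc1 (-0.29 ± 0.09, 0.097 without PQ replicate 2) and Lamb1 (0.24 ± 0.09, 0.24 without PQ replicate 1) lost their calls. Among 33 extracellular proteases and their inhibitors 11 were higher with PQ (7 without PQ replicate 2 and by limma on log2 FPKM, 6 without PQ replicate 1 or NAC replicate 1) and 7 with NAC. The urokinase receptor gene Plaur (0.80), Adamts1 (0.62) and Htra1 (0.60) were among those higher with PQ, and the membrane protease genes Mmp15 (-0.90) and Adam12 (-0.64), Timp4 (-1.38) and Adamts6 (-1.09) with NAC.

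Receptors for matrix and for neighbouring cells differed in both directions. Of 16 integrins 6 were higher with PQ (3 without NAC replicate 1 and with the stricter filter), led by Itga8 (0.76 ± 0.09), Itga3 (1.10 ± 0.17) and Itgb3 (2.14 ± 0.43), and 2 with NAC. Those were Itga9 (-1.07 ± 0.10) and Itgav (-0.44 ± 0.09). Cadherins and protocadherins gave 6 higher with PQ (3 without PQ replicate 2) and 8 with NAC (5 without PQ replicate 2) of 22. Cdh19 (0.71), Cdh13 (0.53) and Celsr1 (0.98) were on the PQ side, and Pcdh15, Cdh20 (26.8 and 31.6 against 78.9 and 75.8 CPM, -1.40 ± 0.11), Cdh4 (-0.50) and Pcdh19 (-0.88) on the NAC side. Ephrins and Eph receptors, which signal at contacts between cells, leaned to PQ (6 of 15, median 0.27). The ligand Efnb2 had 43.0 and 53.8 CPM with PQ, 16.6 and 17.5 CPM with NAC and 28.7 and 31.6 CPM in control (1.51 ± 0.14), and the receptor Epha2 had 77.3 and 82.0 against 33.7 and 38.4 CPM (1.14 ± 0.11). Epha7 (0.95) and the ligand gene Efna3 (1.23) were higher with PQ too, whereas Epha5 was higher with NAC (-0.84) and lost its call (adjusted p = 0.28 without NAC replicate 1). Of 31 semaphorin, plexin, slit and netrin genes 7 were higher with PQ, among them Sema4g (1.24 ± 0.15), Sema3a (0.77 ± 0.11), Sema3e (1.07 ± 0.19) and the netrin receptor Unc5b (0.77 ± 0.13). On the NAC side were 5 of them (3 by DESeq2 and by limma on log2 FPKM, 2 without PQ replicate 1 or PQ replicate 2 or NAC replicate 2). Robo2 (-0.55 ± 0.11) and Plxnc1 (-0.83 ± 0.19) kept their calls.

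Actin and focal adhesion genes were called in 10 of 48 cases higher with PQ (6 without PQ replicate 2) and in 7 higher with NAC. The actin-binding genes Cald1 (122 and 99.6 against 51.2 and 47.7 CPM, 1.16 ± 0.11), Actn1 (0.74 ± 0.11), Actn4 (0.59 ± 0.09) and Tpm1 (0.63 ± 0.10) were higher with PQ. Gap43, the growth cone protein (4.37 and 5.42 against 11.3 and 12.0 CPM, -1.24 ± 0.20), Rdx (-0.56 ± 0.10) and Myh10 (-0.49 ± 0.09) were higher with NAC. The YAP and TEAD list showed no lean, with 4 of 18 higher with PQ and 4 with NAC (2 without PQ replicate 1 or PQ replicate 2 or NAC replicate 1 or NAC replicate 2). F3 (0.81), Nt5e (1.01), Ptpn14 (0.64) and Tead4 (2.57) were on the PQ side, and Fjx1 (-0.91) and Crim1 (-0.57) on the NAC side. Ccn2, a widely used YAP target, was higher with NAC (-1.47) and lost its call (adjusted p = 0.33 without PQ replicate 2), as did Amotl1 (-0.29, 0.12 without PQ replicate 1).

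**Figure D3:**
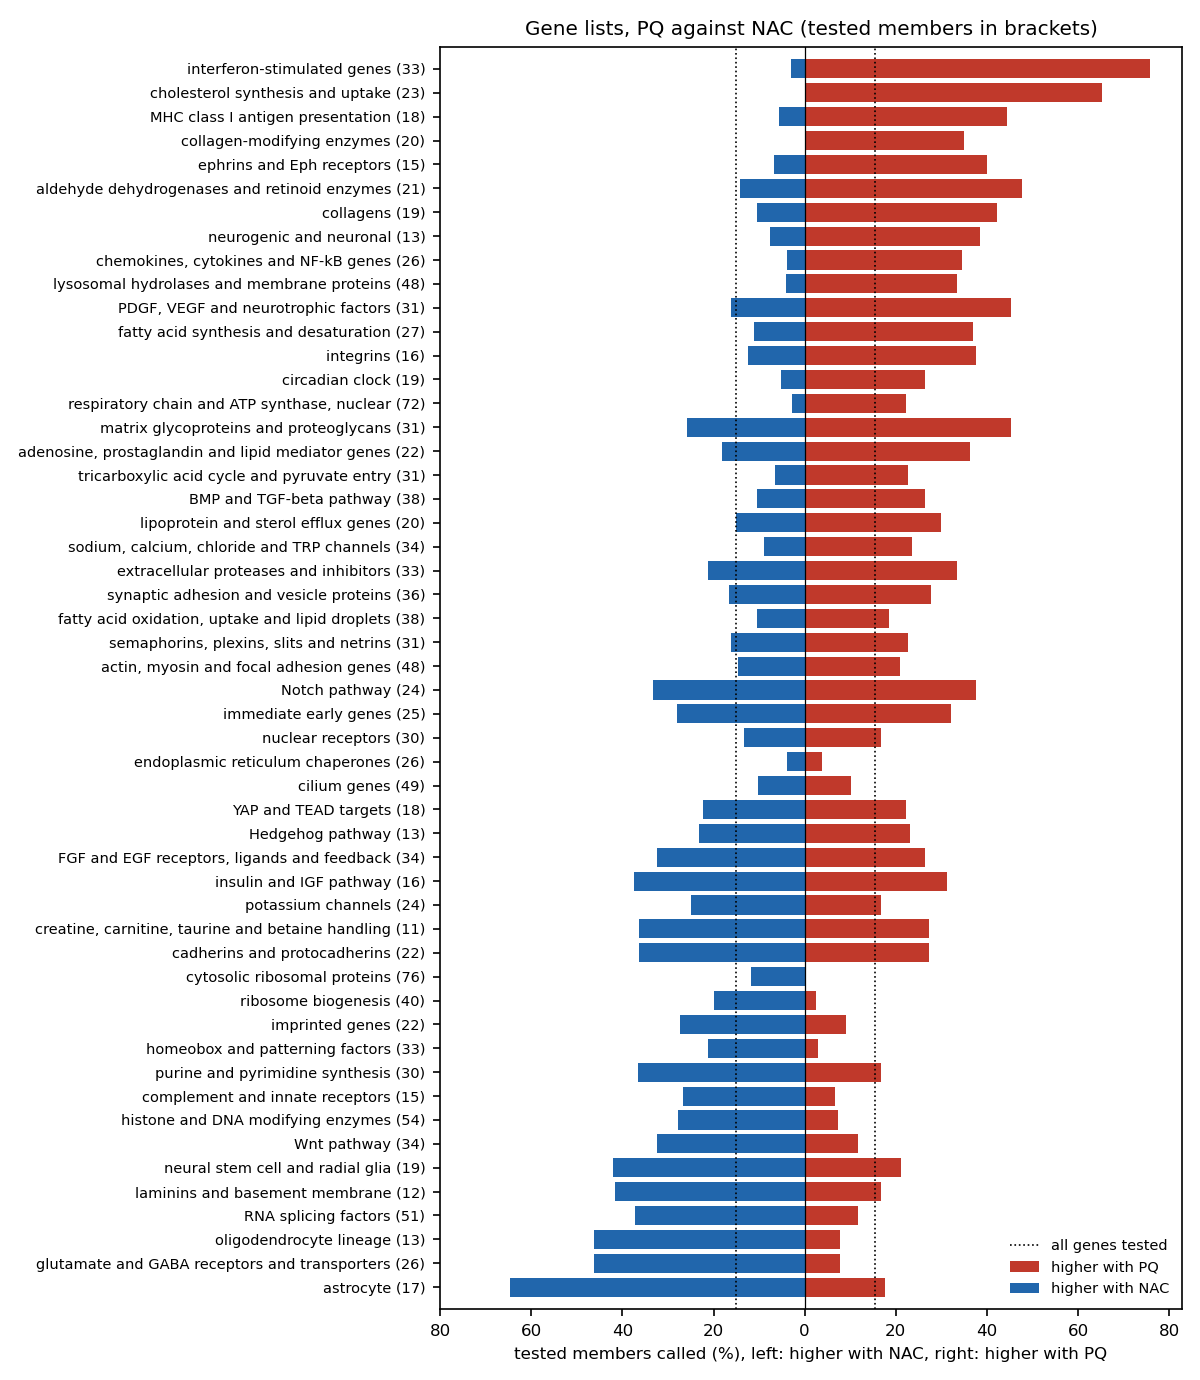
Share of tested members called higher with PQ (red, to the right) and higher with NAC (blue, to the left), in percent, for each list outside stress and cell cycle with at least 10 tested members; dotted lines mark the shares over all genes tested, 15.5% and 15.1%. Interferon-stimulated and cholesterol genes reach farthest to the right, astrocyte genes farthest to the left, followed at equal shares by oligodendrocyte genes and glutamate and GABA genes.

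The EGF and FGF pathway, which the culture medium feeds, held EGF family ligands on the PQ side and receptors and feedback genes on the NAC side. Of 34 genes 9 were higher with PQ and 11 with NAC (5 without PQ replicate 1, 6 without PQ replicate 2, 7 without NAC replicate 1 or NAC replicate 2). The PQ side held ligands of the EGF receptor family: Areg, Ereg and Hbegf. Areg, amphiregulin, stood at 119 and 102 CPM with PQ, 26.7 and 26.0 CPM with NAC and 41.2 and 51.9 CPM in control (2.06 ± 0.12). Ereg, epiregulin, had 54.5 and 51.4 against 28.4 and 26.3 CPM (0.95 ± 0.12) and Hbegf 205 and 185 against 117 and 119 CPM (0.72 ± 0.10). Flrt3 (1.65 ± 0.19), an FGF receptor partner, was also higher with PQ. The NAC side held the receptors Egfr (136 and 148 against 202 and 192 CPM, -0.47 ± 0.10) and Fgfr3 (28.3 and 29.7 against 55.2 and 59.8 CPM, -0.99 ± 0.12). The feedback inhibitors Spry1 (119.6 and 129.7 against 232 and 228 CPM, -0.89 ± 0.09) and Dusp6 (196 and 199 against 342 and 333 CPM, -0.77 ± 0.09) were with them. The ligand Fgf1 stood at 21.96 and 19.7 CPM with PQ, 46.2 and 43.8 CPM with NAC and 23.2 and 23.4 CPM in control (-1.11 ± 0.12). For Fgf1 the control libraries lay close to the PQ libraries and the NAC libraries stood apart.

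In the Notch pathway the genes higher with NAC were ligands, a modulator and targets. Of 24 genes 8 were higher with NAC (5 without PQ replicate 2 or NAC replicate 1) and 9 with PQ (3 without NAC replicate 1). The ligand Dll1 had 3.64 and 5.13 CPM with PQ, 16.2 and 13.7 CPM with NAC and 4.04 and 3.32 CPM in control (-1.76 ± 0.21), and the ligand Dll4 had 0.416 and 0.190 against 3.43 and 2.87 CPM (-3.35 ± 0.50). The feedback target Nrarp (4.37 and 2.76 against 11.4 and 11.7 CPM, -1.70 ± 0.22) and Lfng (49.0 and 50.5 against 91.1 and 94.7 CPM, -0.90 ± 0.10), a glycosyltransferase that modifies Notch, moved the same way. Hes1, a target that keeps progenitors undifferentiated, was higher with NAC (-0.38 ± 0.11) but lost its call (adjusted p = 0.22 without PQ replicate 2). On the PQ side stood the ligand Jag2 (3.02 and 2.66 against 0.278 and 0.693 CPM, 2.53 ± 0.58), the nuclear partner Rbpj (0.57 ± 0.10) and Maml3 (0.57 ± 0.13).

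Wnt genes leaned to NAC, with 11 of 34 higher there (7 without PQ replicate 2 and by DESeq2) and 4 with PQ. The receptor genes Fzd9 (4.27 and 4.85 against 14.1 and 14.8 CPM, -1.66 ± 0.19) and Fzd10 (-0.86 ± 0.13) were higher with NAC. So were the R-spondin receptor Lgr5 (8.12 and 10.5 against 24.7 and 20.1 CPM, -1.26 ± 0.17) and the feedback target Axin2 (36.4 and 40.3 against 60.4 and 58.7 CPM, -0.63 ± 0.11). The related receptor Lgr6 went the other way (9.89 and 12.0 against 2.13 and 4.36 CPM, 1.76 ± 0.26). So did the ligand Wnt7b (0.85 ± 0.11) and Fzd5 (0.55 ± 0.11), and Fzd8 (0.53 ± 0.15), which lost its call (adjusted p = 0.069 without NAC replicate 1). BMP and TGF-beta genes gave 10 higher with PQ and 4 with NAC of 38. Tgfbr3 (1.09), Acvr1 (0.66), Gdf11 (0.74) and Id2 (0.57) were on the PQ side, and Smad5 (-0.64) and Ltbp4 (-0.73) kept their calls on the NAC side, which held 2 without PQ replicate 1 or NAC replicate 2. In the Hedgehog list 3 of 13 were higher with PQ (1 without PQ replicate 1 or PQ replicate 2 or NAC replicate 1 and by DESeq2), of which Disp2 (0.81) kept its call, and 3 with NAC. Hhip, a target that binds Hedgehog ligand (0.937 and 0.950 against 5.01 and 3.27 CPM, -2.12 ± 0.38), and Gas1 (-0.58 ± 0.10), a co-receptor, kept theirs.

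Some growth factor ligands and their receptors sat on opposite sides. Among 31 PDGF, VEGF and neurotrophic genes 14 were higher with PQ (9 without NAC replicate 1) and 5 with NAC. Lif, the leukaemia inhibitory factor, was higher with PQ (38.6 and 43.6 against 18.9 and 20.9 CPM, 1.05 ± 0.14). Its receptor subunits Lifr (36.5 and 35.1 against 64.4 and 58.7 CPM, -0.78 ± 0.12) and Il6st (82.5 and 76.6 against 122 and 122 CPM, -0.61 ± 0.10) were higher with NAC. Gfra2 (0.83), Met (0.80) and Nrp2 (0.67) were receptors higher with PQ. Ntrk2, the BDNF receptor (4.89 and 4.85 against 14.6 and 15.8 CPM, -1.64 ± 0.19), Pdgfra (-0.49 ± 0.11) and the ligand gene Ptn (-0.69 ± 0.09) were higher with NAC. In the insulin and IGF list 5 of 16 were higher with PQ and 6 with NAC (3 without PQ replicate 1). The binding protein genes Igfbp3 (0.70 ± 0.09) and Igfbp5 (0.64 ± 0.10) opposed Igfbp4 (14.7 and 12.9 against 39.8 and 34.6 CPM, -1.43 ± 0.14), and the adaptors Irs1 (-0.86 ± 0.09) and Irs2 (-0.68 ± 0.12) were higher with NAC. Of 22 adenosine, prostaglandin and lipid mediator genes 8 were higher with PQ (5 by DESeq2 and by limma on log2 FPKM + 1). They included the receptors P2ry2 (2.08 ± 0.31), P2ry6 (1.42 ± 0.27), Adora2a (0.93 ± 0.17) and Ptgfr (1.18 ± 0.23). The 4 higher with NAC all lost their calls in at least 1 leave-out.

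More glutamate and GABA genes, several of them typical of glia, were higher with NAC than with PQ. Of 26 glutamate and GABA receptors and transporters 12 were higher with NAC (7 without PQ replicate 2) and 2 with PQ (1 without PQ replicate 2 or NAC replicate 2 and by DESeq2), with a median of -0.35. The metabotropic glutamate receptor Grm5 stood at 112 and 101 CPM with PQ, 379.6 and 362 CPM with NAC and 195 and 196 CPM in control (-1.80 ± 0.10, adjusted p = 6.8e-10), an order in which no groups overlapped. The glutamate transporter Slc1a3 (315 and 299 against 529 and 520.0 CPM, -0.77 ± 0.09) moved the same way as the GABA genes Slc6a11 and Gabrg1. Gria3 (0.46 ± 0.10) was higher with PQ, and so was Grin1 (0.76 ± 0.21), which lost its call (adjusted p = 0.15 without PQ replicate 2). Potassium channels gave 4 higher with PQ (2 without NAC replicate 1 and with the stricter filter) and 6 with NAC of 24. The inward rectifiers of astrocytes, Kcnj10 (170.5 and 188 against 359 and 329 CPM, -0.94 ± 0.10) and Kcnj16 (37.2 and 35.4 against 65.3 and 62.2 CPM, -0.82 ± 0.11), were higher with NAC, as were Kcnmb4 (-1.03) and Kcnd2 (-2.42). In contrast Kcnj12 (11.1 and 10.1 against 4.26 and 3.56 CPM, 1.43 ± 0.23) and Kcnf1 (1.99) were higher with PQ. Among sodium, calcium, chloride and TRP channels 8 of 34 were higher with PQ and 3 with NAC. The calcium channel genes Cacna1h (158 and 154 against 64.9 and 76.6 CPM, 1.14 ± 0.13) and Cacnb3 (1.01 ± 0.15) and the chloride channel gene Ano1 (1.71 ± 0.27) were on the PQ side. Clic5 (-0.78 ± 0.09) and Trpm7 (-0.50 ± 0.10) were on the NAC side. Synaptic adhesion and vesicle genes were mixed, 10 of 36 higher with PQ (6 without PQ replicate 1, 5 without NAC replicate 1) and 6 with NAC (3 without PQ replicate 1). Nrcam (0.76), Chl1 (0.72) and Syn1 (1.05) opposed Ncam2 (22.4 and 22.999 against 63.2 and 55.8 CPM, -1.39 ± 0.12), Cntn1 and Syt11 (-0.41).

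Cell type markers gave a split picture. Of 17 tested astrocyte markers 11 were higher with NAC and 3 with PQ, with a median of -0.66. Gfap, the astrocyte filament, had 5.41 and 4.75 CPM with PQ, 11.0 and 13.8 CPM with NAC and 5.96 and 4.57 CPM in control (-1.29 ± 0.21). The water channel Aqp4 had 4.27 and 2.76 CPM with PQ, 13.5 and 12.9 CPM with NAC and 3.64 and 4.16 CPM in control (-1.92 ± 0.22). In both of these the NAC libraries were the highest. Aqp4 was named after its values were seen. Acsbg1 (-1.16 ± 0.09), Slc4a4 (-1.43 ± 0.12), Aldoc (-1.10 ± 0.10) and Mlc1 (-0.94 ± 0.10) moved with them. Gja1, the gap junction protein connexin 43 (518 and 473 against 302 and 294 CPM, 0.74 ± 0.09), and Aldh1l1 (7.39 and 10.1 against 3.43 and 2.08 CPM, 1.66 ± 0.27) went the other way. Sox9 did too (0.43 ± 0.10) but lost its call (adjusted p = 0.066 without NAC replicate 1). Stem cell and radial glia genes split, 4 of 19 higher with PQ and 8 with NAC (5 without PQ replicate 2 or NAC replicate 1). Vim (0.93 ± 0.09), Tnc and Nes were on the PQ side. The receptor phosphatase Ptprz1 (415 and 416 against 881 and 832 CPM, -1.04 ± 0.09) and the nuclear receptor Nr2e1 (22.3 and 20.2 against 36.9 and 33.5 CPM, -0.73 ± 0.13) were on the NAC side.

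In the oligodendrocyte list 6 of 13 were higher with NAC and 1, Myrf (8.01 and 11.2 against 3.43 and 3.66 CPM, 1.44 ± 0.23), with PQ. Lhfpl3 (15.5 and 15.1 against 60.8 and 67.1 CPM, -2.06 ± 0.13) and Nkx2-2 (31.8 and 30.0 against 50.1 and 42.2 CPM, -0.58 ± 0.12) were among those higher with NAC. Of the exonic bases of Lhfpl3 17.6% lie on an opposite-strand gene that was also tested. Olig2 was higher with NAC (-0.26 ± 0.09) but lost its call (adjusted p = 0.31 without PQ replicate 1). Neuronal genes were higher with PQ in 5 of 13 cases (3 without NAC replicate 1 and by DESeq2). The neurofilament gene Nefl stood at 125 and 119 CPM with PQ, 32.9 and 51.7 CPM with NAC and 86.9 and 79.8 CPM in control (1.53 ± 0.14). Nefm (111 and 106 against 31.0 and 46.0 CPM, 1.49 ± 0.13), a second neurofilament, and the RNA-binding protein Celf4 (30.0 and 34.4 against 9.27 and 7.72 CPM, 1.92 ± 0.16) moved with it. Nefl and Nefm overlap on opposite strands and share 32.8% of the exonic bases of Nefl and 19.2% of those of Nefm, so part of their reads cannot be told apart. Map2, a dendritic microtubule protein, was higher with NAC (191 and 179.8 against 359 and 318 CPM, -0.87 ± 0.10). In bulk cultures fewer cells of a type and less RNA per cell cannot be told apart. Markers of other cells were also summed, in CPM scaled to library size without TMM factors. Of 20 microglial and blood markers 15 were in the tables, C1qa at 0 in the PQ and NAC libraries. Their sum was 80.9 and 80.7 CPM with PQ, 68.0 and 67.5 CPM with NAC, and 61.8 and 59.9 CPM in control. The 14 endothelial markers, 12 in the tables, summed to 128.4 and 114.2 CPM with PQ and 90.5 and 112.5 CPM with NAC. The 18 fibroblast and pericyte markers summed to 113.8 and 126.3 CPM against 140.8 and 159.0 CPM, and the 12 ependymal and choroid markers, 8 in the tables, to 18.3 and 20.5 CPM against 15.5 and 16.5 CPM. Their part in the results was not tested.

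**Figure D4:**
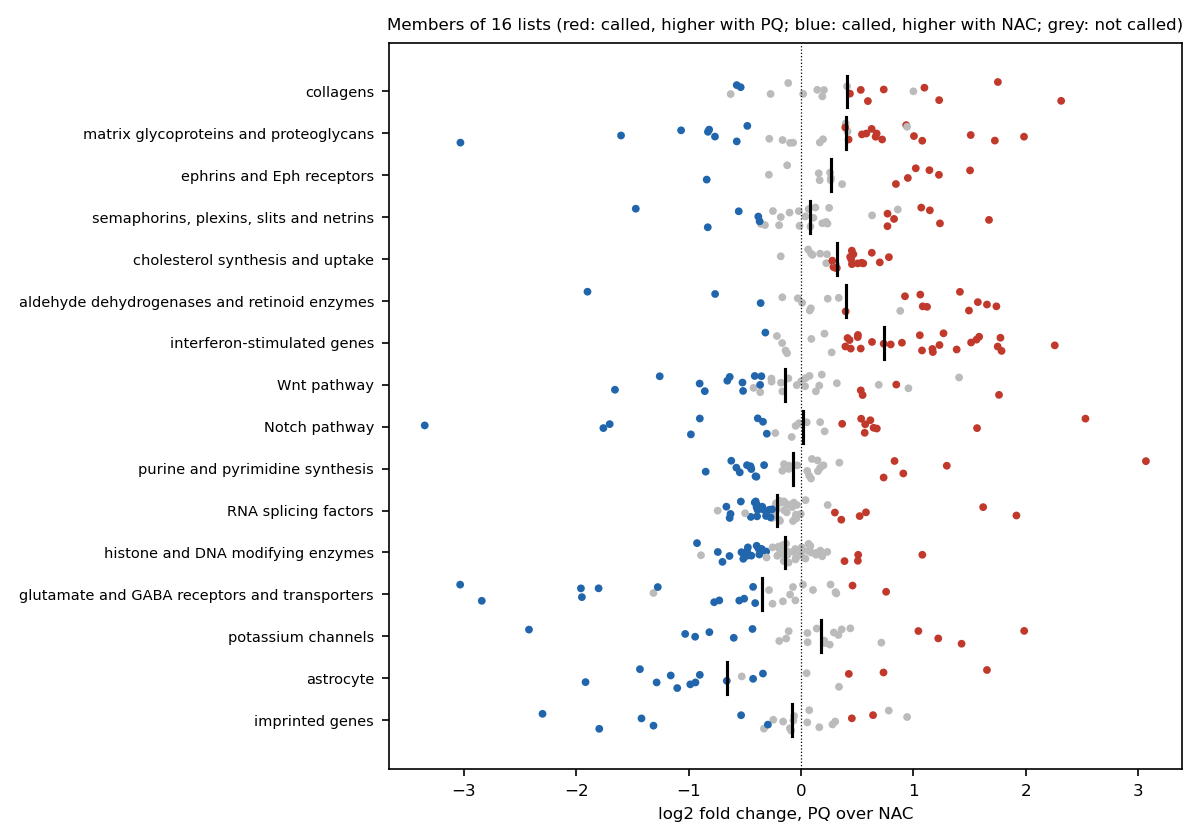
Log2 fold change of PQ over NAC (horizontal axis) of each tested member of 16 lists, 1 point a gene, with the list median as a black bar; red and blue points are genes called higher with PQ and with NAC. Interferon-stimulated genes lie mostly to the right of 0 and astrocyte genes mostly to the left, while matrix, Notch and purine lists spread to both sides.

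Lists of lipid synthesis genes held more members higher with PQ than with NAC. Of 23 cholesterol synthesis and uptake genes 15 were higher with PQ and 0 with NAC, at a median of 0.32 (9 without PQ replicate 1, 8 without NAC replicate 1). The differences were small: Nsdhl had 255 and 246 against 156 and 151 CPM (0.70 ± 0.09), Pmvk had 81.7 and 79.6 against 46.9 and 46.8 CPM (0.78 ± 0.11), and Hsd17b7 (0.63 ± 0.11) and Msmo1 (0.56 ± 0.09) were similar. In fatty acid synthesis 10 of 27 were higher with PQ (6 without PQ replicate 2 or NAC replicate 1). They included the acetate-activating enzyme Acss2 (119.8 and 111 against 54.4 and 58.9 CPM, 1.02 ± 0.11), the desaturase Scd1 (1254 and 1112 against 649 and 650.2 CPM, 0.87 ± 0.10), Acsl4 (0.90 ± 0.11) and Fads3 (1.08 ± 0.14). Gpam, which starts glycerolipid synthesis, was higher with NAC (29.5 and 30.8 against 54.1 and 52.97 CPM, -0.83 ± 0.11). In oxidation, uptake and lipid droplets 7 of 38 were higher with PQ and 4 with NAC (2 without PQ replicate 2 or NAC replicate 1). The share of that list called on either side, 28.9%, was near the 30.6% of all genes tested. Plin2, a lipid droplet coat protein (144 and 149.97 against 69.7 and 81.3 CPM, 0.96 ± 0.10), and Lipg were on the PQ side. Cpt1a, the gate of mitochondrial fatty acid import (39.9 and 48.0 against 77.0 and 75.1 CPM, -0.79 ± 0.11), was on the NAC side. Among lipoprotein genes 6 of 20 were higher with PQ (3 without PQ replicate 2), of which the receptors Vldlr (0.84 ± 0.11) and Lrp8 (0.53 ± 0.10) kept their calls. Apoe was higher with NAC (29.0 and 42.6 against 54.0 and 59.5 CPM, -0.66 ± 0.15) and lost its call (adjusted p = 0.064 without PQ replicate 1).

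Nucleotide synthesis genes were on the NAC side in 11 of 30 cases (7 without NAC replicate 1), all of them enzymes of the de novo routes. They included Prps1, which makes the ribose donor (34.5 and 35.2 against 68.0 and 57.4 CPM, -0.85 ± 0.11), Ppat (-0.57 ± 0.10), Paics (-0.54 ± 0.09) and Cad (54.8 and 58.2 against 85.4 and 88.4 CPM, -0.62 ± 0.11). The PQ side held 5 genes, all of which kept their calls. They were Adssl1, the salvage enzymes Hprt (90.5 and 76.7 against 57.1 and 43.1 CPM, 0.74 ± 0.13) and Aprt (31.3 and 41.3 against 19.002 and 21.9 CPM, 0.83 ± 0.15), and a pair of kinases. Ak1 had 133 and 142 against 53.1 and 58.5 CPM (1.30 ± 0.10) and Cmpk2 34.8 and 42.1 against 20.2 and 20.7 CPM (0.91 ± 0.13). Respiratory chain and ATP synthase genes were called higher with PQ in 16 of 72 cases (10 without PQ replicate 1 or NAC replicate 1, 8 without PQ replicate 2). The differences were small, as in Ndufv3 (0.57 ± 0.10), Cox7b (0.54 ± 0.09), Uqcrq (0.56 ± 0.11) and Atp5l (0.55 ± 0.10). In the tricarboxylic acid cycle list 7 of 31 were higher with PQ (2 without PQ replicate 1, 4 without PQ replicate 2 or NAC replicate 1 or NAC replicate 2). Me2 (121 and 106 against 59.5 and 57.2 CPM, 0.96 ± 0.10) and Sdhb (0.39 ± 0.09) kept their calls. Of the 2 higher with NAC Suclg2 (39.96 and 40.01 against 78.6 and 74.1 CPM, -0.93 ± 0.10) kept its call. The share of that list called on either side, 29.0%, was near the 30.6% of all genes tested. The taurine transporter Slc6a6 (583 and 562 against 316 and 325 CPM, 0.84 ± 0.09), the inositol transporter Slc5a3 (0.57 ± 0.10) and the creatine transporter Slc6a8 (0.44 ± 0.10) were higher with PQ. The creatine synthesis enzyme Gatm was higher with NAC (76.2 and 70.5 against 122 and 118 CPM, -0.71 ± 0.10). Lysosomal genes were higher with PQ in 16 of 48 cases (9 without PQ replicate 1, 6 without PQ replicate 2, 7 without NAC replicate 1). The proteases Ctsd (851 and 924 against 545 and 590.2 CPM, 0.65 ± 0.09) and Ctsb (0.65 ± 0.10) led them, and Ctsc went the other way (38.8 and 39.6 against 82.4 and 86.0 CPM, -1.10 ± 0.11).

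Aldehyde dehydrogenases and retinoid genes showed opposite differences between close relatives. Of 21 genes 10 were higher with PQ and 3 with NAC (1 without PQ replicate 1), at a median of 0.40. The retinoic acid-forming enzyme Aldh1a3 was higher with PQ (36.7 and 38.2 against 12.2 and 14.4 CPM, 1.496 ± 0.16). Aldh1a1, which catalyses the same step, was higher with NAC (5.41 and 5.04 CPM with PQ, 18.0 and 21.1 CPM with NAC and 4.35 and 5.19 CPM in control, -1.90 ± 0.18). Aldh4a1, of proline breakdown (24.2 and 27.4 against 11.9 and 12.9 CPM, 1.06 ± 0.15), Aldh1l2, of mitochondrial folate metabolism (254 and 217 against 118 and 129 CPM, 0.93 ± 0.11), and its cytosolic relative Aldh1l1 were higher with PQ. Aldh1l2 shares 17.3% of its exonic bases with a tested gene on the opposite strand.

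Interferon-stimulated genes held the largest share higher with PQ among the lists outside stress and cell cycle that had at least 10 tested members. Of 33 tested 25 were higher with PQ, at a median of 0.74, and 1, Gbp2, with NAC (-0.32 ± 0.11, adjusted p = 0.3 without PQ replicate 1). The PQ count was 16 without PQ replicate 2. The antiviral radical enzyme Rsad2 stood at 74.9 and 103 CPM with PQ, 33.2 and 28.9 CPM with NAC and 18.0 and 21.7 CPM in control (1.52 ± 0.14). The transcription factor Irf7 stood at 46.9 and 59.5 CPM with PQ, 17.0 and 19.1 CPM with NAC and 18.3 and 24.0 CPM in control (1.56 ± 0.15). Ifit1 had 76.7 and 109 CPM with PQ, 30.7 and 24.5 CPM with NAC and 16.6 and 29.4 CPM in control (1.75 ± 0.19) and Oasl1 30.9 and 46.8 against 10.8 and 11.9 CPM (1.78 ± 0.19). In these 4 genes both PQ libraries lay above both NAC libraries, as required of genes named without a further remark. Promoters of 2 further members and of 2 cell cycle genes are printed here because the motif named for these groups can be read in them. They are the 200 bases before the annotated start, from RefSeq on GRCm38.p6, 5′ to 3′ on the gene's strand, with matches on either strand in capitals. The first 2 hold the interferon-stimulated response element, searched as GAAA, any 2 bases and GAAA again, the third the E2F motif TTTCCCGC and the fourth the cell cycle homology motif TTTGAA.
Isg15: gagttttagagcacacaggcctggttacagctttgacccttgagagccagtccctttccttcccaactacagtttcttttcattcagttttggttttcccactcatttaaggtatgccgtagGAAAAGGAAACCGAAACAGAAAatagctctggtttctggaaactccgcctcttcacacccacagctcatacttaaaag
Ifit3: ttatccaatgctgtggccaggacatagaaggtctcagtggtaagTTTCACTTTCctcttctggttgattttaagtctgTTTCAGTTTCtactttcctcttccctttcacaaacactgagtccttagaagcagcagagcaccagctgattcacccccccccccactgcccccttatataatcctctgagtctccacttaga
Cdc6: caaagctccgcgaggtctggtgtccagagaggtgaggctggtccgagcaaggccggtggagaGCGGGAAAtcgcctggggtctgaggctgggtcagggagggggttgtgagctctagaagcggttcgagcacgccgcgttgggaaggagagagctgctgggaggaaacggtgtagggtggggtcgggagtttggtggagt
Mki67: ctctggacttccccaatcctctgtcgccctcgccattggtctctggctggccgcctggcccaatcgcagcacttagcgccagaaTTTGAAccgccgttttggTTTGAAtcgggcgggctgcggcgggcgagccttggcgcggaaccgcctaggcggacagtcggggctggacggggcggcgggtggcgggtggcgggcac
Isg15 (minus strand, chr4:156200819-156201018) holds 3 overlapping matches and stood at 38.7 and 56.2 against 20.3 and 19.1 CPM. Ifit3 (plus strand, chr19:34583329-34583528) holds 2 and stood at 23.3 and 35.3 against 15.5 and 12.3 CPM. Cdc6, a replication licensing factor (plus strand, chr11:98907951-98908150), holds 1 match and stood at 15.2 and 16.4 against 38.1 and 34.3 CPM, and Mki67, a proliferation marker (minus strand, chr7:135716380-135716579), holds 2. Isg15, Ifit3 and Cdc6 were chosen for print after their values and promoters were seen.

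Across all promoters, searched on both strands from 250 bases before to 50 after the start in 10218 tested genes that matched, 8 motifs were counted, with no test of the differences. The interferon element was in 72 of 1576 promoters of genes higher with PQ (4.57%), 43 of 1545 of genes higher with NAC (2.78%) and 302 of all 10218 (2.96%). The E2F motif was in 14 of 1576 (0.89%), 76 of 1545 (4.92%) and 223 of all (2.18%). The cell cycle homology motif was in 10.03% of PQ-side, 15.08% of NAC-side and 11.72% of all promoters. The amino acid response element TGATGNAA was in 2.92%, 1.62% and 2.19%. The hypoxia element NACGTGN was in 25.25%, 24.53% and 25.82%, and the antioxidant element TGANNNNGC in 43.85%, 43.62% and 43.14%. The NF-kB motif, searched as GGGA, any 4 bases and CC, was in 27.98%, 28.74% and 26.35%, and the CArG box, searched as CC, any 6 bases and GG, in 87.5%, 87.06% and 87.08%. The interferon element was in 16 of the 25 matched members of the interferon-stimulated list. The E2F motif was in 4 of 19 matched S phase promoters and 0 of 20 matched G2 and M phase promoters, and the cell cycle homology motif in 2 and 15 of them. A match is a run of letters, not a bound site.

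Other immune genes were mixed. MHC class I antigen presentation genes were higher with PQ in 8 of 18 cases (5 without NAC replicate 1), among them H2-D1 (0.61 ± 0.11) and B2m (691 and 686 against 506 and 439.9 CPM, 0.54 ± 0.10). The peptide transporter Tap1 (0.81 ± 0.15) and Psmb8 (0.74 ± 0.17) were with them, and the trimming peptidase Erap1 was higher with NAC (-0.58 ± 0.11). Of 26 chemokine, cytokine and NF-kB genes 9 were higher with PQ. They were led by the alarmin Il33 (303 and 277 against 122 and 122 CPM, 1.25 ± 0.09), Tnfaip2 (1.48 ± 0.15), Ccl7 (1.35 ± 0.20) and Ccl2 (200.3 and 251 against 140.1 and 145 CPM, 0.66 ± 0.12). Complement and innate receptor genes were called on either side in 33.3% of cases, near the 30.6% of all genes tested, at a median of -0.116. Of 15 tested 4 were higher with NAC. They included the lipopolysaccharide co-receptor Cd14 (5.31 and 7.89 against 30.5 and 31.4 CPM, -2.22 ± 0.18) and the DNA-sensing adaptor Sting1 (78.7 and 94.3 against 164 and 175 CPM, -0.97 ± 0.10). The others were the complement genes C4b (4.79 and 5.51 against 16.7 and 22.97 CPM, -1.94 ± 0.21) and C3 (5.93 and 7.89 against 12.6 and 13.1 CPM, -0.89 ± 0.19). Casp1 was the 1 gene of that list higher with PQ (0.57 ± 0.19, adjusted p = 0.18 without NAC replicate 2).

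The longest run of neighbouring tested genes called in the same direction also belonged to this field. It lies on chromosome 1, at chr1:173723424-174031755 of mm10, and holds 7 genes of the interferon-inducible p200 family, whose proteins sense or bind DNA. All 7 were higher with PQ, over 308.3 kb, and their summed level was 251.52 and 228.0 CPM with PQ, 127.82 and 124.96 CPM with NAC, and 142.2 and 165.08 CPM in control. Ifi204 had 45.8 and 45.4 against 15.8 and 15.8 CPM (1.53 ± 0.14) and Ifi202b 176 and 152 against 97.4 and 95.5 CPM (0.76 ± 0.11). Ifi207 (1.57 ± 0.32), Mndal (1.70 ± 0.38) and Ifi203 (0.90 ± 0.22) kept their calls too. Ifi211 (0.86 ± 0.21) and Ifi205 (1.55 ± 0.47) lost theirs (adjusted p = 0.072 without PQ replicate 2 and 0.21 without PQ replicate 2). The neighbours on 1 side, Ifi208 (-0.36, adjusted p = 0.61) and Aim2 (-0.41, 0.28), were not called. These genes are close paralogs, so reads may be split between them, and the run and its members were chosen after their values were seen. The next longest runs held 5 genes each.

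**Figure D5:**
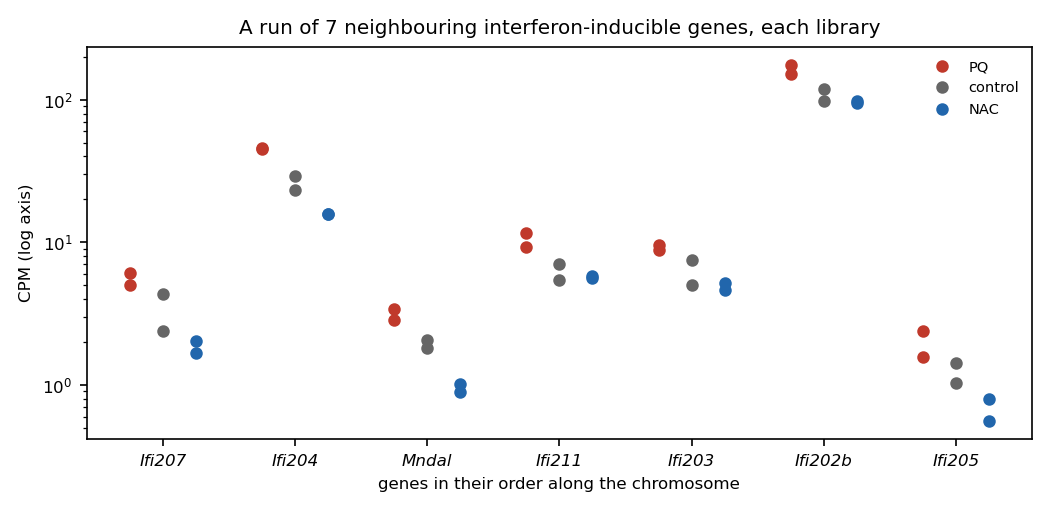
Level in CPM (vertical log axis) of 7 neighbouring p200 family genes, in their order along chromosome 1, in each PQ, control and NAC library (points). For every gene both PQ points lie above both NAC points, from Ifi205, the lowest, to Ifi202b, the highest.

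Histone and DNA modifying enzymes and splicing factors held more members higher with NAC than with PQ. So did ribosome genes, but fewer of them were called on either side than the 30.6% of all genes tested. The shares were 22.5% for ribosome biogenesis, with 1 gene higher with PQ, and 11.8% for cytosolic ribosomal proteins. Of 54 histone and DNA modifying enzymes 15 were higher with NAC and 4 with PQ (1 without PQ replicate 2, 2 without NAC replicate 2). The maintenance methyltransferase Dnmt1 (338 and 344 against 538 and 569 CPM, -0.70 ± 0.09), its partner Uhrf1 (112 and 115 against 196 and 183 CPM, -0.74 ± 0.11), the histone methyltransferase Suv39h2 (-0.93 ± 0.16) and the acetyltransferase Kat6a (-0.53 ± 0.10) were on the NAC side. The demethylase Kdm5b (0.51 ± 0.10) was on the PQ side. Dnmt1, Uhrf1 and other genes of replicating cells stand beside the S phase list above, of which Uhrf1 is also a member. RNA splicing factors were higher with NAC in 19 of 51 cases (9 without PQ replicate 2, 12 without NAC replicate 1). They included Srsf6 (138 and 132 against 220.0 and 197 CPM, -0.63 ± 0.10), Srsf2 (144 and 133 against 201 and 199.8 CPM, -0.54 ± 0.10), Khdrbs3 (-0.66 ± 0.10) and Srsf4 (-0.63 ± 0.10). Srsf4 shares 67.9% of its exonic bases with a tested gene on the opposite strand. On the PQ side were 6 (3 without PQ replicate 2 or NAC replicate 1 and by limma on log2 FPKM + 1), among them Celf4 (1.92 ± 0.16), Rbfox2 (0.58 ± 0.10) and Mbnl2 (0.52 ± 0.11), regulators of tissue-specific splicing. Ribosome biogenesis genes gave 8 of 40 higher with NAC (5 without PQ replicate 1 or PQ replicate 2 or NAC replicate 1, 14 without control replicate 1, 13 without control replicate 2), led by Dkc1 (-0.69 ± 0.12) and Nop56 (-0.59 ± 0.10). Of 76 cytosolic ribosomal protein genes 9 were higher with NAC and 0 with PQ, a smaller share than the 15.1% of all genes tested. The NAC count ran from 1 without PQ replicate 2 to 16 with library size scaling alone, and Rps15 kept its call (-0.40 ± 0.09).

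Transcription factors responding to signals were divided within their families. Of 25 immediate early genes 8 were higher with PQ (4 without PQ replicate 1) and 7 with NAC (4 without PQ replicate 1). The AP-1 subunits Fosl1 (83.0 and 81.1 against 30.3 and 33.5 CPM, 1.36 ± 0.11) and Jund (135 and 154 against 85.1 and 98.6 CPM, 0.65 ± 0.10) and the factor Klf4 (0.58 ± 0.13) were higher with PQ. On the NAC side were Egr1 (63.6 and 64.2 against 134 and 147 CPM, -1.14 ± 0.10), Egr2 (-0.92 ± 0.16), Klf10 (-0.78 ± 0.11) and Myc (79.0 and 82.7 against 136 and 139.7 CPM, -0.77 ± 0.10). Fosl1 shares 62.4% of its exonic bases with a tested gene on the opposite strand. Homeobox and patterning genes were higher with NAC in 7 of 33 cases (3 without PQ replicate 1 or PQ replicate 2, 2 without NAC replicate 1), of which Satb1 (-0.83 ± 0.14) and Nkx2-2 kept their calls. Clock genes were called in 5 of 19 cases higher with PQ (3 without PQ replicate 2 and by DESeq2, 2 without PQ replicate 1 or NAC replicate 1). Bhlhe41 kept its call (34.5 and 25.8 against 13.7 and 13.7 CPM, 1.14 ± 0.16). Hlf was higher with NAC (0.208 and 0.0950 against 2.41 and 2.28 CPM, -3.87 ± 0.60). Of the clock list 31.6% were called on either side, at a median of 0.066, near the 30.6% of all genes tested. For homeobox and patterning genes that share was lower, 24.2%, at a median of -0.051 and with 1 gene higher with PQ. Nuclear receptors were mixed, 5 higher with PQ (3 without PQ replicate 1 or NAC replicate 1 and by DESeq2 and by limma on log2 FPKM, 2 without PQ replicate 2) and 4 with NAC (1 without PQ replicate 2 or NAC replicate 1) of 30. Of the nuclear receptors 30.0% were called on either side, near the 30.6% of all genes tested, at a median of -0.023. Esrrg (1.11 ± 0.15) and Rarg (1.08 ± 0.17) kept their calls on the PQ side and Nr2e1 on the NAC side. Endoplasmic reticulum chaperones, the folding enzymes of the secretory pathway, were called in 1 of 26 cases on each side. Both P4hb (0.37 ± 0.09, adjusted p = 0.12 without PQ replicate 1) and Dnajc3 (-0.45 ± 0.11, 0.095 without NAC replicate 1) lost their calls.

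Imprinted genes, expressed from 1 parental copy, included Peg10 of the leading genes on the NAC side. Of 22 tested 6 were higher with NAC (3 without NAC replicate 2) and 2 with PQ. Mest stood at 331 and 319.6 CPM with PQ, 1204 and 1056 CPM with NAC and 739 and 659.9 CPM in control (-1.80 ± 0.10). Peg10 stood at 77.9 and 89.3 CPM with PQ, 455 and 369 CPM with NAC and 124 and 144 CPM in control (-2.30 ± 0.12). Peg3 stood at 8.64 and 9.88 CPM with PQ, 25.8 and 20.3 CPM with NAC and 18.2 and 12.7 CPM in control (-1.31 ± 0.19). In each of these 3 the NAC libraries were the highest and the PQ libraries the lowest. They are the members on the NAC side that kept their calls. All 3 are paternally expressed, but whether parental origin goes with direction was not tested. Of the list 14 were not called and 36.4% were called on either side, beside 30.6% of all genes tested, at a median of -0.077. Mest shares 32.9% of its exonic bases with a tested gene on the opposite strand. Igf2r (197 and 207 against 125 and 133 CPM, 0.64 ± 0.09) and Inpp5f (207 and 185 against 149 and 137 CPM, 0.45 ± 0.10) were higher with PQ.

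Gene families grouped by symbol, a grouping chosen after the values were seen, showed more calls on 1 side in several cases. Of 347 Zfp zinc finger genes 60 were higher with NAC (17.3%, beside 15.1% of all genes tested) and 15 with PQ (4.3%, beside 15.5%), at a median of -0.12. By DESeq2 27 Zfp genes were higher with NAC, where all genes gave 1447 in place of 1940. The Zfp count also fell in each fit without 1 PQ or NAC library, as did that of all genes. Among 20 Nup genes, mostly nucleoporins, 10 were higher with NAC and 1 with PQ (median -0.30). The 10 became 6 if PQ replicate 1 was dropped, 5 if PQ replicate 2 was and 4 if NAC replicate 1 was. Among 40 Trim genes, many of them ubiquitin ligases, 10 were higher with PQ and 3 with NAC, and the 10 became 5 without PQ replicate 2. Of 215 Slc transporter genes 35 were higher with PQ and 30 with NAC, shares near the 15.5% and 15.1% of all genes tested. With all libraries the Slc family therefore did not stand out from other genes. The 30 became 19 by DESeq2, 16 if PQ replicate 1 was dropped, 19 if PQ replicate 2 was and 15 if NAC replicate 2 was. These medians hardly moved with TMM, library size, RLE and DESeq2 scaling (Zfp -0.122, -0.137, -0.121 and -0.12). The scalings shift all genes nearly alike, so the unchanged signs are no separate support.

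Calls were spread over chromosomes and expression levels. By chromosome 10.227% to 18.182% of tested genes were higher with PQ and 11.404% to 18.862% with NAC. The share higher with PQ ran from 13.695% in the lowest of 5 equal groups by expression to 17.167% in the highest, and the share higher with NAC from 8.233% to 19.508%. Of 473 long noncoding RNA genes tested 23 were higher with PQ and 47 with NAC, against 1947 and 1872 of 12187 protein-coding genes, and the median level of the noncoding genes was 2.898 CPM against 34.543 CPM. Genes at 0 in both NAC libraries, such as Llgl2 (5 and 11 counts with PQ), Nyap2 (9 and 6) and Alox5ap (6 and 8), had few counts with PQ and were below the filter, so they were not tested. Of genes at 0 in both PQ libraries Gm3448 (9 and 24 counts with NAC, 6 and 24 in control, adjusted p = 0.0021) and Tnfsfm13 (11 and 11 with NAC, 0 and 25 in control, adjusted p = 0.024) were tested and called. Tnfsfm13 lost its call (adjusted p = 0.11 without PQ replicate 2).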

How the data were processed

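RNA of 6 libraries of mouse neural stem and progenitor cells was sequenced on a BGISEQ-500, per the labels' protocols, which list both rRNA depletion and oligo dT selection and do not state the one used. Each library has 1 table deposited by the authors, whose rows are genes (Entrez identifiers) and whose columns include the expected count and the FPKM, per the file headers. Tools named in the submitters' processing notes are RSEM, Bowtie2 2.2.5 and HISAT2 2.0.4, and the build is mm10. Whether counting used the strand is not given in the sources used here. Deposited FPKM values served only for ranking by abundance and in an alternative. Genes absent from a table were set to 0. Of 17254 identifiers 17199 had a name, and the other 55 held 0.0724% to 0.0789% of a library's counts.

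Expected counts were rounded and tested with edgeR 4.0.16 (R 4.3.3, limma 3.58.1): filterByExpr (minimum count 10, minimum total 15), TMM scaling, the quasi-likelihood test with group means (all 6 libraries, 3 residual degrees of freedom), and Benjamini-Hochberg adjustment over 12813 genes, with a threshold of 0.05. CPM use TMM factors, except in the sums of markers of other cells. The SE was taken as the size of the log2 fold change over the root of its F value. Counts were also simulated, with 67 genes changed 1.5-fold, 67 changed 2-fold and 66 changed 4-fold, and 12658 genes were tested. Of these changes 59.7%, 91.04% and 96.97% were recovered, with 6.25% false calls. The changed genes were a far smaller part than the 30.6% called in the data, so these rates may not carry over. Smaller differences can be missed. A chi-square over its degrees of freedom, near 1 for counting noise alone, was 4.07 within PQ, 4.67 within NAC and 30.18 to 37.28 between them. Alternatives were library size scaling, RLE, DESeq2 1.42.0, 2 other filters, the 4 libraries alone, a robust fit, limma on log2 FPKM with pseudocounts of 1 and 0.1, and leaving out each library. Tables and figures used Python 3.11.15, pandas 2.3.3 and matplotlib 3.10.9.

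The comparison and the 62 gene lists were chosen with earlier results of these data known. Named genes follow a rule. It takes called genes without overlap whose call held without any 1 library: the 20 with the largest fold in each direction at 5 CPM or more in the higher group, the 10 with the largest FPKM difference, up to 4 members per list and direction by p, all members where 5 or fewer moved, a panel of 11 genes, and up to 10 genes at 0 in 1 group. Some genes the rule takes are not reported here. Of 403 genes it names, 401 were found by name in the annotation and 41 overlap exons of a further tested gene. Replicate numbers follow sample order and mark no pairing.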

Additional observations from a re-analysis of the deposited data

How the results depend on the processing

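No called gene that the naming rule takes changed sign in any alternative run. For genes taken because their call held without any 1 library, the leave-out runs could not have shown otherwise. The same holds for their part in the gene results counted below. More genes were higher with NAC than with PQ under library size scaling (2046 and 1872) and by limma (1778 and 1736 with a pseudocount of 1, 1749 and 1723 with 0.1). In 8 of 62 lists the side with more calls switched in at least 1 alternative. Among them were EGF and FGF genes (9 with PQ and 5 with NAC without PQ replicate 1), Notch genes (3 and 5 without NAC replicate 1), extracellular proteases (6 and 8 without NAC replicate 1) and nuclear receptors (4 and 6 under library size scaling). Leaving out 1 library gave 2427 to 4442 called genes, 1273 to 2215 higher with PQ, 1154 to 2227 higher with NAC, 391 to 540 at least 2-fold higher with PQ and 253 to 300 with NAC. The low ends came from dropping a PQ or NAC library (1292 higher with NAC without PQ replicate 1, and 2537, 1290 and 1247 called, higher with PQ and higher with NAC without NAC replicate 1), which leaves 1 library in that group, assumed to vary like the others. With a stricter filter (50 counts in 2 libraries) 344 and 185 genes were at least 2-fold higher with PQ and with NAC. With limma on log2 FPKM + 1, which compresses folds of low genes by construction, they were 206 and 134. DESeq2 called 2980 genes, of which 2971 were shared. Over all alternatives 5729 gene results kept their side of the threshold and 293 did not, and 239 list counts moved by over 1.5 times while 1621 did not. No paired analysis was possible because the groups share no library number in the titles, and no pairing was inferred from the order of the numbers. With 2 libraries a group of 9680436 to 10698241 counts, differences under 1.5-fold may often be missed.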

Other observations

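Further families grouped by symbol, chosen after their values were seen, were counted in the same way. Of 30 Kif genes, the kinesin motors, 12 were higher with NAC and 5 with PQ (median -0.18). Of 37 Cep genes, many of them centrosomal, 13 were higher with NAC and 2 with PQ (-0.33), and the 13 became 4 without PQ replicate 2 or without NAC replicate 1. Of 18 Rad genes 8 were higher with NAC and 0 with PQ (-0.34). The 8 became 5 without PQ replicate 2 or NAC replicate 1, and DESeq2 called 1 Rad gene higher with PQ. Of 21 Cox genes 7 were higher with PQ and 0 with NAC (0.20), and the 7 became 4, 3 and 3 without PQ replicate 1, PQ replicate 2 and NAC replicate 1. Of 19 Zdhhc genes, the palmitoyl transferases, 6 were higher with NAC and 0 with PQ, and the 6 became 3, 2 and 2 in the same leave-outs and 3 by DESeq2.

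After the run of interferon-inducible genes, 4 runs of 5 neighbouring tested genes were called in 1 direction. On chromosome 6 Ccdc136, Flnc, Atp6v1f, Irf5 and Tnpo3 (213.3 kb) were higher with PQ, on chromosome 7 Trim30a, Fam160a2, Cckbr, Cavin3 and Smpd1 (1149.4 kb), and on chromosome 16 Acap2, Ppp1r2, Apod, Bdh1 and Dlg1 (780.9 kb). On chromosome 3 Jade1, Sclt1, D3Ertd751e, Pcdh10 and Pcdh18 (8201.6 kb) were higher with NAC. These runs were named after their values were seen, and their calls in leave-outs were not counted.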
